A study of Mus musculus with 22 samples.

Results

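The Gm4557 repeat gene family is a group of multicopy genes on mouse chromosome 7 whose transcripts share long runs of identical sequence. The 10 members described here, of 55335 genes in the expression table, are Gm5890, Gm4513, Gm10668, Gm4526, Gm5157, Gm4545, Gm4557, Gm4565, Gm4567 and Gm10662. They were selected on their higher expression in H2A.Z knockdown (KD) blastocysts than in control blastocysts and on their sequence shared with Gm4557, so the blastocyst values below are a description and carry no test.

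Expression was measured by RNA-seq (Smart-seq2, polyadenylated RNA) in 22 libraries of mouse embryos, each library pooling 15 embryos. The embryos came from B6D2F1 females mated with B6D2F1 males. Control and KD embryos were collected as 2-cell embryos 43 to 44 h after hCG injection, as morulae at 78 h and as blastocysts at 94 h. The authors report that KD reduced blastocyst formation but not development to the morula. Whether KD and control embryos collected at the same hour differed in developmental progress was not tested. Each stage had 4 control libraries, beside 3 KD libraries for 2-cell embryos, 3 for morulae and 4 for blastocysts. KD zygotes had received about 10 pL of mixed siRNAs against H2A.Z at 20 µM, and what the control zygotes of these libraries received is not given in the sources used here. Nothing in the labels says that the libraries of a group came from separate collections, so the p-values measure the spread between these libraries, which may be technical.

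Values are FPKM, which scale the fragments of a gene by its length and by library size, so that levels are compared between genes per length. The number of reads behind a value is unknown. FPKM multiplied by length in 13491 single-exon genes gave only a weak hint of a smallest step, since 3.29% to 11.6% of low values in a library lay on it. The relative depth read from that step was 18.0 to 28.8 in 2-cell and morula libraries and 14.8 to 22.2 in blastocyst libraries.

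H2A.Z is a variant of histone H2A that replaces the canonical histone in some nucleosomes, often around the start sites of genes. In the mouse, the embryonic genome is switched on in earnest at the 2-cell stage, when many multicopy gene families and retrotransposons are transcribed for a short time and then silenced. Families of recently duplicated genes are hard to measure, because a short read can match several copies equally well.

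The labels were checked first. H2afz, which encodes H2A.Z, had FPKM of 1244, 1236, 905 and 1178 in control 2-cell replicates 1, 2, 4 and 5 and of 414.6, 138.6 and 112 in KD replicates 1, 2 and 4. It was 1158 to 1511 in control morulae and 25.7 to 30.3 in KD morulae, and 1945 to 2656 in control blastocysts and 53.2 to 67.2 in KD blastocysts. Every KD library was below every control library of its stage, and KD 2-cell replicate 1 kept the highest H2afz level of the KD libraries. H2afv, the other gene for H2A.Z, averaged 100.7 ± 8.75 FPKM in 4 control morula libraries and 11.3 ± 1.51 in 3 KD morula libraries (mean ± SD). Its mean was 57.5 in control and 15.3 in KD blastocysts. At the 2-cell stage H2afv differed little, with means of 109.6 in control and 88.9 in KD embryos. The limma log2 fold change there was -0.23 (adjusted p = 0.84).

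Stage markers followed the labels. The summed FPKM of the 2-cell markers Zscan4c, Zscan4d, Zfp352, Usp17lc and Tdpoz4 was 209.5 in control and 200 in KD 2-cell embryos, and 3.35 in control and 6.71 in KD morulae. In blastocysts it was 0.69 in control and 7.48 in KD embryos, with Zfp352 the most abundant at 0.37 and 3.28, and none of the 5 markers was at 0 in all libraries of a group. The keratins Krt8 and Krt18 and the transcription factors Pou5f1, Nanog, Sox2, Cdx2, Gata3 and Tfap2c summed to 265 in control morulae and 1333 in control blastocysts, and to 137.5 and 860 in KD embryos. The blastocyst sums were mostly Krt8 and Krt18, and single markers differed from the sum. Pou5f1 had a mean of 31.9 FPKM in control morulae, 14 in control blastocysts and 25.7 in KD blastocysts, and Tfap2c 17.5, 6.58 and 13.2. Nanog had 105.6 in control and 20.7 in KD morulae, called lower there by limma at a log2 fold change of -2.23 (adjusted p = 0.00647), and 132.1 in control and 161 in KD blastocysts. The cumulus cell markers Has2, Fshr, Amh, Inha, Ptgs2 and Tnfaip6 summed to at most 3.50 FPKM in any library, with Fshr at 0 throughout. The oocyte markers Gdf9, Bmp15, Zp3 and Oosp1 summed to 858 in control 2-cell embryos, 6.88 in control morulae and 8.97 in KD morulae. For the 2-cell markers, the sums overlapped between control (1.46 to 6.03) and KD morulae (4.50 to 9.18), and the 2 markers tested there, Tdpoz4 and Zfp352, were not called. In blastocysts the sums did not overlap. The part of these markers and of Nanog in the results below was not tested.

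The members lie on the minus strand of chromosome 7 between 20260451 and 23144480 of GRCm38 (the assembly also called mm10), a span of 2.88 Mb. A search of all annotated transcripts for an exact run of at least 150 bases shared with Gm4557, the length of a sequencing read, found 6 further genes, Gm6882, Gm8600, Gm5891, Gm6176, Gm8708 and Gm6902. These relatives are also on the minus strand, with 5 among the members and Gm6902 beyond Gm10662, and the 16 genes stand 101849 to 330216 bases apart (median 200131). Some of the spacing recurs. Gm4513 (ENSMUSG00000109060.1) and Gm10668 (ENSMUSG00000095190.3) are 125503 bases apart, and their near-identical counterparts Gm4565 (ENSMUSG00000109396.1) and Gm4567 (ENSMUSG00000095363.2) are 125483 bases apart.

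Of the members, 7 are annotated as coding and 3, Gm4526, Gm4545 and Gm4557 itself, as unprocessed pseudogenes with 1 exon. Gm5890 is coding in the Ensembl annotation and a pseudogene in RefSeq. The coding sequences of Gm4513, Gm10668, Gm5157, Gm4565 and Gm4567 have 903 bases, that of Gm5890 has 915 and that of Gm10662 has 939. Translated with the standard code, all 7 contain in order the tripeptides HRD, DFG and APE, with 5 to 60 residues between neighbours, which are hallmarks of protein kinases. This was looked for after the sequences had been seen, and 1.05% of 21234 coding genes hold the same series.

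Coding members were 94.4% to 100% identical to each other (median 97.2% over 21 pairs). Gm4513 and Gm4565 have the same transcript over all 1438 bases, and Gm10668 and Gm4567 have the same coding sequence. The whole transcript of Gm4557, 907 bases, is contained in that of Gm5890. The beginning of the coding sequence is shown as a place where the copies differ. It holds copies of a 21-base unit in tandem, and Gm4567 opens with a copy that differs by a base from the unit. Gm4567, Gm4513 and Gm10662 are shown, with 1, 2 and 3 exact units in capitals (GRCm38, minus strand, chr7:22714830-22714910, chr7:20594204-20594284 and chr7:23133857-23133937).
Gm4567: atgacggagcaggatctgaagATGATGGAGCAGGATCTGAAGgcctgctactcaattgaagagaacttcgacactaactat
Gm4513: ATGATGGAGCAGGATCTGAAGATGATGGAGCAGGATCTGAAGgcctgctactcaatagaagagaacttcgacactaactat
Gm10662: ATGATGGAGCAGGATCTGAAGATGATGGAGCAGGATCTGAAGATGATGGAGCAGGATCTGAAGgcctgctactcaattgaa

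The sequence sharing limits what can be said of single copies. In 5 members, Gm4513, Gm10668, Gm4557, Gm4565 and Gm10662, none of the 150-base stretches of the longest transcript was unique among annotated transcripts. In Gm4567 10.5% were unique, in Gm5157 34.9%, in Gm5890 36%, in Gm4545 37.7% and in Gm4526 62.1%. How the authors' quantification split reads between such copies is not given in the sources used here, so values of single copies are uncertain. Over the 22 libraries, the ratio of Gm4513 to Gm4565 stayed between 0.931 and 1.00. Other close copies did not keep a constant ratio. Gm10668 to Gm4567, with transcripts 99.94% identical, ranged from 0.60 to 0.958 and was lowest in KD 2-cell replicate 1, with 53.9 against 89.8 FPKM. Gm10662 to the relative Gm5891, with identical transcripts, ranged from 0.859 to 1.93. The summed FPKM of the members depends less on the split than single values do. It still changes when reads move between copies of different length, 603 bases in Gm4545 to 2495 in Gm10662, or to the relatives.

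The family was most highly expressed in 2-cell embryos. The summed FPKM of the members was 897, 1231, 817 and 817 in control 2-cell replicates 1, 2, 4 and 5. It was 100.4, 84, 47.8 and 140.9 in control morula replicates 1, 2, 7 and 8, and 6.25, 7.96, 5.85 and 6.37 in control blastocyst replicates 1, 4, 5 and 6. The groups did not overlap, and the mean was 10.1-fold lower in morulae than in 2-cell embryos and 14.1-fold lower in blastocysts than in morulae, without a test of these sums.

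The mean summed FPKM was lower in KD than in control 2-cell embryos and higher in KD morulae and blastocysts, without a test. The summed FPKM was 696, 824 and 508 in KD 2-cell replicates 1, 2 and 4, and 203.5, 121.4 and 212.9 in KD morula replicates 1, 2 and 6. It was 136.3, 114.3, 132.6 and 106.4 in KD blastocyst replicates 1, 4, 5 and 6. KD and control libraries overlapped at the 2-cell stage, where KD replicate 2 exceeded the lowest controls, and in morulae, where control replicate 8 exceeded KD replicate 2. Both overlaps were between different ranges of replicate numbers (1 and 2, or higher), a split made after seeing the data. Among 2-cell libraries numbered 1 and 2, the sum was 897 to 1231 in control and 696 to 824 in KD embryos. Among higher numbers it was 817 in each control library and 508 in the KD library. In blastocysts, KD and control libraries did not overlap.

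The ratio of KD to control means of the sum was 0.719 at the 2-cell stage, 1.92 in morulae and 18.5 at the blastocyst stage, which is -0.48, 0.94 and 4.21 on the log2 scale. Weighting each member by transcript length gave -0.46, 0.95 and 4.08. With the 6 relatives included, the sum averaged 1423 ± 284.1 FPKM in 4 control libraries and 1044 ± 228.6 FPKM in 3 KD libraries at the 2-cell stage (mean ± SD, as below). In morulae the averages were 146.2 ± 55.2 and 276.4 ± 71.3, and in blastocysts 12.6 ± 1.35 and 188.3 ± 12. Less RNA per cell and fewer cells that contain the RNA cannot be told apart in such pooled embryos.

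**Figure D1:**
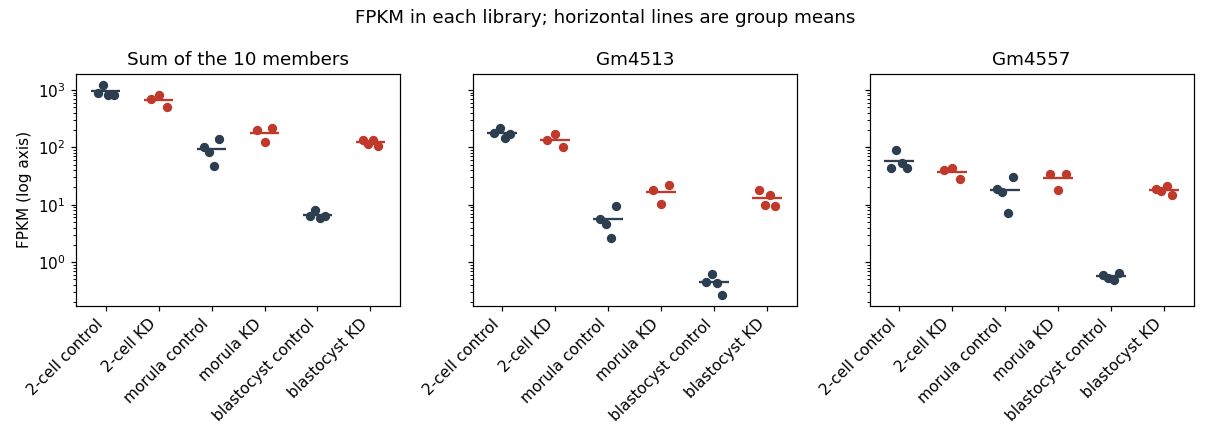
FPKM (log axis) of the summed members, of Gm4513 and of Gm4557 in each of the 22 libraries, with control libraries in dark blue, KD libraries in red and group means as horizontal lines. Control levels are lower at each later stage, and the 4 KD blastocyst libraries, at 106.4 to 136.3 for the sum, lie above the 4 control blastocyst libraries, at 5.85 to 7.96.

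The decline from control 2-cell embryos to control morulae used libraries that did not choose the members, and was tested with limma on log2(FPKM + 1) of scaled values over 13655 genes. A gene was called when its Benjamini-Hochberg adjusted p was below 0.05 and its log2 fold change was above 1 or below -1. Fold changes on this scale understate the change of genes of low FPKM. All 10 members passed the filter on low FPKM and all 10 fell, where 30.1% of all genes tested did. The median log2 fold change was -3.22 for the members and 0.10 for all genes.

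The members fell unequally. Gm4513 and Gm4565, the most abundant copies at the 2-cell stage, fell most. Gm4513 had 175.7, 214.5, 143.9 and 171.1 FPKM in control 2-cell replicates 1, 2, 4 and 5, and 5.66, 4.65, 2.61 and 9.38 in control morula replicates 1, 2, 7 and 8. Its log2 fold change was -4.84 (standard error 0.29, limma adjusted p = 2.06e-08), and that of Gm4565 was -4.86. Gm4557 and the Gm5890 copy that contains it fell least. Gm4557 had 44.5, 89.3, 52.6 and 44 FPKM in the same 2-cell libraries and 18.8, 16.6, 7.21 and 30.5 in the morula libraries, a log2 fold change of -1.70 (standard error 0.37, limma adjusted p = 0.00103). These pairs changed place in the order of FPKM: Gm4513 made up 18.9% of the summed FPKM in control 2-cell embryos and 5.82% in control morulae, and Gm4557 6.01% and 18.8%. Gm4567, Gm10668, Gm10662 and Gm4526 kept their order among themselves at both stages.

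The same stages were compared among KD embryos in a separate fit, and the difference between these declines is tested only by the interaction given further on. From KD 2-cell embryos to KD morulae, 8 of the 10 members fell, where 30.5% of 12690 genes tested did, with a median log2 fold change of -1.79 for the members and 0.12 for all genes. The exceptions were Gm4557, at -0.32 (standard error 0.26, limma adjusted p = 0.268), and Gm5890, at -0.29 (standard error 0.26, limma adjusted p = 0.323). Gm4513 had a log2 fold change of -2.88 (standard error 0.26, limma adjusted p = 6.37e-06). All 6 relatives fell in both series, with log2 fold changes of -3.28 to -2.65 in control and -2.02 to -1.51 in KD embryos.

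In morulae, 5 of the 10 members were called higher in KD than in control embryos, where 0.992% of 10989 genes tested were. KD libraries lay above all control libraries for 6 members, where this held for 6.7% of genes tested. The members share sequence, so in this and the other comparisons they are not 10 separate measurements. The members had a median log2 fold change of 0.99, against 0.02 for all genes, and lay between 0.79 and 1.61. These control morula libraries also enter the decline from the 2-cell stage described above.

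Gm4513 and Gm4565, the members with identical transcripts, had the largest fold changes. Gm4513 had 18, 10.5 and 22 FPKM in KD morula replicates 1, 2 and 6, and every value was above the highest control value, 9.38. Its log2 fold change was 1.59 (standard error 0.35, limma adjusted p = 0.0164), and that of Gm4565 was 1.61 (standard error 0.35, adjusted p = 0.0160 in the same limma fit). Since their transcripts are identical, these are not separate measurements.

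Gm5157 (ENSMUSG00000101436.1, coding) was next. It had 4.81, 3.48, 2.78 and 5.43 FPKM in control replicates 1, 2, 7 and 8 and 12.6, 6.70 and 12.3 in KD replicates 1, 2 and 6. The groups did not overlap, and the log2 fold change was 1.26 (standard error 0.25, limma adjusted p = 0.0116). Gm10668 had 11.7, 9.22, 7.53 and 14.7 FPKM in the control libraries and 22.5, 16.7 and 24.7 in the KD libraries. These groups did not overlap either, and the log2 fold change was 1.06 (standard error 0.23, limma adjusted p = 0.0164), with 1.04 for its counterpart Gm4567 (standard error 0.23, adjusted p = 0.0180 in that fit).

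The other 5 members were not called. Gm4545 (ENSMUSG00000101076.2) had an adjusted p of 0.0414 from limma but a log2 fold change of 0.86 (standard error 0.24). Gm4526 had a log2 fold change of 0.93, Gm10662 of 0.86, Gm4557 of 0.86 and Gm5890 of 0.79, with limma adjusted p of 0.0757, 0.0857, 0.174 and 0.193. Gm4557 (ENSMUSG00000101948.1) had 34.2, 18.3 and 34.8 FPKM in KD replicates 1, 2 and 6, and the second of these was within the control range of 7.21 to 30.5. Of the relatives, Gm6176, Gm8600 and Gm8708 were called higher, at log2 fold changes of 1.12, 1.06 and 1.04.

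The morula calls rested on few libraries, although the fold changes of the 5 called members moved little in the fit that lost all calls. Without KD morula replicate 1, 0 members were called. The log2 fold changes were then 1.55 for Gm4513, 1.56 for Gm4565, 1.15 for Gm5157, 1.04 for Gm10668 and 1.02 for Gm4567, with limma adjusted p of 0.0537 to 0.0644. Without KD replicate 6 or control replicate 7, 3 were, and without control replicate 8, 7 were. With FPKM as deposited and not scaled, 3 members were called. With no filter on low FPKM 0 were, at the same fold changes and with more genes in the adjustment. Among libraries with replicate numbers 1 and 2, the summed FPKM was 84 to 100.4 in 2 control and 121.4 to 203.5 in 2 KD morula libraries, and among higher numbers it was 47.8 and 140.9 in control and 212.9 in the KD library. In each range of numbers the KD libraries were above the control libraries.

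**Figure D2:**
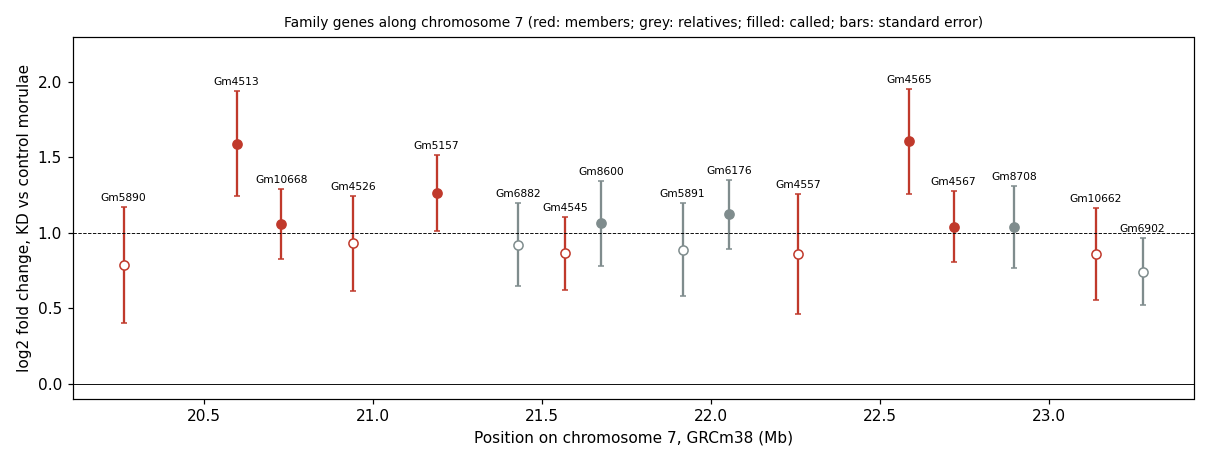
Log2 fold change between KD and control morulae (vertical axis, with standard errors from limma as bars) of the 16 family genes at their positions on chromosome 7 in Mb (horizontal axis), with members in red, relatives in grey, called genes filled and the dashed line at the threshold of 1. All 16 estimates are above 0, between 0.74 and 1.61.

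At the 2-cell stage, 0 members were called lower by limma, where 0% of 12160 genes tested were; 701 of all genes and 2 of the members, Gm10668 and Gm4545, had an unadjusted p under 0.05. The smallest adjusted p among all genes, 0.544, was that of H2afz, the targeted gene, at a log2 fold change of -2.53. The absence of calls does not show that the members were unchanged. The 10 members had log2 fold changes of -0.75 (Gm4545) to -0.17 (Gm5157), with a median of -0.40 against 0.00 for all genes. KD libraries lay below all control libraries for 3 members, Gm5890, Gm4545 and Gm10662, where this held for 4.13% of genes tested. For Gm10668, KD replicates 1, 2 and 4 had 53.9, 93.6 and 51.9 FPKM and control replicates 1, 2, 4 and 5 had 106.2, 129.5, 102.1 and 87. KD replicate 2 was within the control range and the other KD libraries were below it. Among numbers 1 and 2, and among higher numbers, the KD libraries were below the control libraries. The near-identical copy Gm4567 had 89.8 FPKM in KD replicate 1 and a log2 fold change of -0.44, so the value of Gm10668 there is uncertain.

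The KD effects at these stages were compared directly by an interaction in a limma fit over the 14 libraries of 2-cell embryos and morulae. The effect in morulae minus that in 2-cell embryos was called higher for 4 of the 10 members, where 0.383% of 14605 genes tested were. These were Gm4565 at 1.93 (standard error 0.45, limma adjusted p = 0.0436), Gm4513 at 1.91 (0.45, adjusted p = 0.0440 in this limma fit), Gm10668 at 1.69 (0.35, 0.0265) and Gm4545 at 1.60 (0.37, 0.0415). The other members lay between 1.20 and 1.48, with Gm4567 closest to the threshold at a limma adjusted p of 0.0526. Gm4567 is the near-identical copy of Gm10668, and in KD 2-cell replicate 1 it had 89.8 FPKM against 53.9 for Gm10668. The call of Gm10668 without Gm4567 may therefore depend on how reads were split. With the range of replicate numbers (1 and 2, or higher) as a block, an alternative added after seeing the data, 6 members were called, with Gm5157 and Gm4567 added at 1.62 each. Without any 1 of 5 libraries (KD 2-cell replicates 1 and 4, control morula replicate 7 and KD morula replicates 1 and 6), 0 members were called. The estimates of the 4 stayed of similar size. Over all 14 fits that each left out a library they were 1.66 to 2.20 for Gm4513, 1.68 to 2.22 for Gm4565, 1.54 to 1.92 for Gm10668 and 1.35 to 1.85 for Gm4545.

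In blastocysts, the contrast that the members were chosen by, each of the 10 was higher in all 4 KD libraries than in all 4 control libraries. This held for 14.6% of 11828 genes tested, and 6.06% were called higher. Gm4557 had 0.603, 0.540, 0.485 and 0.646 FPKM in control replicates 1, 4, 5 and 6 and 18.8, 17.6, 21.3 and 14.5 in the KD replicates of the same numbers. Gm4513 had 0.452, 0.630, 0.438 and 0.267 in the control and 18.2, 10.1, 14.5 and 9.66 in the KD libraries. The ratio of KD to control means ran from 9.02 for Gm4545 to 34.8 for Gm4526 (ENSMUSG00000099623.2). The 6 relatives were also higher in every KD than in every control blastocyst library, with ratios of 6.65 (Gm6902) to 23.7 (Gm8708). They were found by sequence shared with Gm4557, so their values are not separate from those of the members.

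KD blastocysts were set beside control morulae as a description. The ratio of their mean FPKM was 1.31 for the summed members, and ran from 0.986 for Gm4557 to 2.37 for Gm4565. Among the KD groups, the mean of the sum was 3.77-fold lower in morulae than in 2-cell embryos and 1.46-fold lower in blastocysts than in morulae. The members' shares of the sum in KD blastocysts were 14.7% for Gm4557, 14.2% for Gm5890 and 10.5% for Gm4513.

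The genes between the members were hardly expressed. Of 112 other annotated genes there, 53 of them vomeronasal receptor genes of the Vmn1r family, 5 reached an FPKM of 1 in at least 3 libraries. These were Gm8486, Gm8685, Gm4541 and Gm16443, all unprocessed pseudogenes on the plus strand, and Vmn1r139. Gm8486 (ENSMUSG00000109469.1, chromosome 7, 20618446 to 20637932) had a mean of 4.86 FPKM in control 2-cell embryos, 0.0558 in control and 0.250 in KD morulae, and 0.0294 in control and 0.191 in KD blastocysts. Vmn1r139 (ENSMUSG00000074311.3) had a mean of 4.31 FPKM in control 2-cell embryos, 0.0081 in control morulae, 0.136 in KD morulae, 0.0419 in control and 0.340 in KD blastocysts. Mean FPKM of the 5 was 3.65 to 4.86 in control 2-cell embryos and 0.0081 to 0.0558 in control morulae. None of them passed the filter on low FPKM in morulae, so they entered the stage comparison through 2-cell libraries alone and no test is read for them. The vomeronasal neuron markers Omp and Trpc2 summed to at most 0.194 FPKM in any library.

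Other multicopy families of chromosome 7 were set beside the members. Of 8 Obox homeobox genes, 2 passed the filter on low FPKM in morulae, and 1 of these was called higher in KD embryos. The summed FPKM of Obox genes had a mean of 1273 in control and 1190 in KD 2-cell embryos, 524.4 in control and 785.1 in KD morulae, and 8.46 in control and 99.4 in KD blastocysts. It was thus higher in KD morulae and blastocysts, as the summed members were. Of 9 Zscan4 genes, annotated pseudogenes included, 0 passed the filter in morulae. Their summed FPKM had a mean of 243.2 in control and 286 in KD 2-cell embryos, where the summed members were lower in KD than in control embryos, and of 0.879 in control and 2.39 in KD morulae, and 0.189 in control and 0.594 in KD blastocysts. Of 103 Vmn1r genes of chromosome 7, 0 passed the filter in morulae. Genes below the filter in morulae could only be lower there than in 2-cell embryos, so their change between stages is given by levels alone. All 10 members passed it in morulae.

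Likeness of pattern was measured as Pearson's r of log2(FPKM + 1) with that of the summed members over the 22 libraries, which share stage and treatment, among 15687 non-member genes. The blastocyst libraries that the members were chosen by are among the 22. The 6 relatives ranked highest, at 0.977 to 0.991, but they share sequence with members, and how far shared reads make up this likeness was not tested. Gm5891 has the transcript of Gm10662, and the transcripts of Gm8600 and Gm8708 are contained in that of Gm5157. The next were Tbc1d15 (0.968), which encodes a GTPase-activating protein for Rab proteins, and the long noncoding RNA genes Gm33466 (0.967), Gm48419 (0.963) and Gm48423 (0.963). Such a pattern was not particular to the family, since 129 genes outside it had r above 0.9. Gm48419 (ENSMUSG00000112984.1, chromosome 13, 67965483 to 67970239) had mean FPKM of 101.4 in control and 64.2 in KD 2-cell embryos, 24.5 and 39.5 in morulae and 4.98 and 33.8 in blastocysts. Tbc1d15 had 107.6 and 99.3, 60.8 and 69.9, and 35.1 and 61 in the same groups, a narrower range than the family.

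Promoter windows of 300 bases, 250 before and 50 after the start, were taken from RefSeq (GRCm38.p6) and lie at the annotated start for the members Gm4513, Gm10668, Gm4565 and Gm4567. They are shown for these 4 of the 5 members called higher in KD morulae. The fifth, Gm5157, has a window that does not lie at its annotated start. The windows of Gm10668 and Gm4567 are identical. Those of Gm4513 and Gm4565 differ by C139A, counted from 1 at the 5′ end of the Gm4513 window. The 250 bases before the start are printed for a copy of each pair (minus strand, chr7:20599022-20599271 and chr7:22719711-22719960), with matches to TAATCC and ATTTGCAT in capitals.
Gm4513: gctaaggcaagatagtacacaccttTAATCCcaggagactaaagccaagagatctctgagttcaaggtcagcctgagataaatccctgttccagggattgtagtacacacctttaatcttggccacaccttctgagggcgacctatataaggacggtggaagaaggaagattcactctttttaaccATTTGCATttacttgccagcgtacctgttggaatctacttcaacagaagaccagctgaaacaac
Gm4567: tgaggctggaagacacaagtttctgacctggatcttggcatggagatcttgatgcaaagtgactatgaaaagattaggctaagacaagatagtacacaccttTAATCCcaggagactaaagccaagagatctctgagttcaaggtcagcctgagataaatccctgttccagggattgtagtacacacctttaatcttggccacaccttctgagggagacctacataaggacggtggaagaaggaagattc

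The windows were searched on both strands for 8 short motifs. TAATCC, bound by paired-like homeobox factors such as OTX and OBOX proteins, was in all 4 windows and in 7.06% of 32851 promoter windows. ATTTGCAT, the octamer of POU factors, was in those of Gm4513 and Gm4565, 64 bases before the start, and in 1.73% of all windows. The site of GATA1 and related factors, which reads AGATAA, was in all 4 and in 11.2% of all windows. The exact letters TATAAA, a form of the TATA box, were in 0 of the 4 and in 13.6% of all windows. Other forms of the TATA box were not searched for, so its absence is not shown. The sites GATTNAATC for DUX and GCCNNNGGC for TFAP2 were in 0 of the 4, and in 0.268% and 16.6% of all windows. Likewise CATTCC for TEAD proteins and CCACCC for KLF proteins were in 0 of the 4, and in 14.7% and 31.5% of all windows. A match is a description and does not show binding. Since the windows are copies of each other, these are not 4 separate occurrences.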

How the data were processed

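The authors aligned reads to mm10 with STAR and deposited FPKM per gene from StringTie 2.1.4; their DESeq2 results were not used. The handling of reads that match several genes is not given in the sources used here. Members were matched by symbol, and members and gene lists were chosen with earlier results of these data known. Groups and replicate numbers came from the sample titles. Within each comparison, FPKM were divided by a median-of-ratios factor, genes that reached an FPKM of 1 in 3 or more libraries were kept, and log2 values with a pseudocount of 1 were tested with limma 3.58.1 (lmFit, eBayes with trend; R 4.3.3), adjusted by Benjamini-Hochberg over all genes tested. The fits were tested on simulated data.

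Sums over members were described without tests. Sequences and positions came from GENCODE annotation of GRCm38 and from RefSeq, read with Python 3.11.15, biopython 1.88, edlib 1.3.9.post1, numpy 2.4.6 and pandas 2.3.3; figures used matplotlib 3.10.9. Of the table's genes, 54587 matched the annotation by versioned identifier. Named genes were the members, H2afz and H2afv, genes sharing 150 bases with Gm4557, the 10 non-members most alike in pattern and expressed genes between the members; markers and other families were named from lists. Alternatives were another pseudocount, no filter, no scaling, each library left out, a replicate block and a block of number ranges.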

Additional observations from a re-analysis of the deposited data

Results flagged for a closer look

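The KD effect differed between 2-cell embryos and morulae, by the interaction in limma, for 4 members and for both genes of H2A.Z. The effect in morulae minus that in 2-cell embryos was 1.69 for Gm10668, 1.60 for Gm4545, 1.91 for Gm4513 and 1.93 for Gm4565 on the log2 scale, with limma adjusted p of 0.0265, 0.0415, 0.0440 and 0.0436. It was -2.88 for H2afz (limma adjusted p = 0.00890) and -2.71 for H2afv (limma adjusted p = 3.02e-05). The KD means of these genes were thus further below the control means in morulae than in 2-cell embryos. Neither gene was called at the 2-cell stage, where the log2 fold change was -2.53 for H2afz and -0.23 for H2afv. The count of 4 members was 0 without any 1 of 5 libraries, 0 with no filter on low FPKM, 1 with a pseudocount of 0.1 and 6 with ranges of replicate numbers as a block, so it depends on these choices. The 4 estimates stayed at 1.35 or above in every fit that left out a library. Gm10668 and its near-identical copy Gm4567, which was not called, differed most in ratio in KD 2-cell replicate 1. For the 16 family genes, their sums, H2afz and H2afv, 80 groups of 4 libraries were looked at, blastocyst groups included. In these, 0 libraries stood apart from the rest by Dixon's criterion. The KD 2-cell and KD morula groups, of 3 libraries each, were not among them. In that KD 2-cell group, H2afz was 414.6 FPKM in replicate 1 and 138.6 and 112 in replicates 2 and 4.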

How the results depend on the processing

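The 10 members called lower from control 2-cell embryos to morulae and the 8 in KD embryos were the same counts under each alternative run, and 0 members were called in 2-cell KD against control under each, in fits whose main setting did not call H2afz either. The count of members called higher in KD morulae was 5 and became 6 with a pseudocount of 0.1, 0 with no filter on low FPKM (32900 genes tested) and 3 with no scaling. Over 7 fits that each left out a library it was 0 to 7. The count in the interaction was 4 and became 1 with a pseudocount of 0.1, 0 with no filter and 5 with no scaling, and 0 to 4 over 14 fits that each left out a library. Among all genes, 109 were called higher and 278 lower in KD morulae, against 205 and 584 with a pseudocount of 0.1, 36 and 133 with no filter and 71 and 424 with no scaling. In the interaction these were 56 and 126, against 40 and 92, 24 and 48, and 54 and 204. The cause of these changes was not tested.

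With the replicate block, on libraries with shared numbers, 3 members were called higher in KD morulae, and 2 in the same libraries without a block, an alternative chosen after seeing the data. The block gave 0, 10 and 8 members in the 2-cell, control stage and KD stage comparisons. Same-numbered libraries had correlations of deviations across genes of 0.181 and 0.0944 in morulae and of 0.209, 0.0146 and 0.214 in 2-cell embryos, so single numbers were not taken to pair libraries. Ranges of numbers did go together: in morulae 6 of 6 control and KD pairs within numbers 1 and 2 or within higher numbers had positive correlations (0.0944 to 0.347), against 0 of 6 pairs across ranges (-0.278 to -0.0945). In 2-cell embryos these were 5 of 6 and 1 of 6. With the range as a block, added after seeing these values, 5 members were called higher in KD morulae, 0 lower in 2-cell embryos and 6 higher in the interaction (all genes 94 higher and 160 lower). The main fits have no such term.

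Over 680 estimates for single members under the alternatives, 600 kept their direction and side of the threshold, 67 lost a call, 9 gained one and 4 changed sign. The last were Gm5157 in 2-cell embryos, never called, at 0.09 without control replicate 2 and 0.11 without KD replicate 4 (range -0.34 to 0.11), and, between KD stages without KD morula replicate 2, Gm5890 at 0.069 (range -0.51 to 0.069) and Gm4557 at 0.026 (range -0.55 to 0.026). The log2 ratio of the summed FPKM kept its sign throughout, over fits that left out a library at -0.64 to -0.31 in 2-cell embryos, 0.73 to 1.21 in morulae and 4.16 to 4.31 in blastocysts. Depth in reads is unknown and sets no interval here.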
